A study of Mus musculus with 8 samples.

Results

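Semaphorins, plexins and neuropilins are a guidance system read here in mouse cerebellar cultures with and without thyroid hormone. The genes were taken by name: every gene whose probe-sets carry a single symbol that starts with Sema or Plxn and a class number or letter, together with Nrp1 and Nrp2. This gave 31 genes on 78 probe-sets (20 semaphorins, 9 plexins and 2 neuropilins) among 18193 genes on the array. Of these 31 genes, 24 had enough signal to be compared, among 10194 genes of the array that did. The other 7, Plxnb3, Sema3e, Sema3g, Sema4a, Sema5a, Sema5b and Sema6b, had signals of 1.6 to 78.5 and are given no further values.

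Semaphorins are guidance proteins that steer growing axons and migrating neurons, mostly by repulsion. Class 3 members are secreted and, for the most part, bind neuropilins, which pass the signal on through A-class plexins. Classes 4, 5 and 6 span the membrane, class 7 is held by a lipid anchor, and these bind plexins directly. In the postnatal cerebellum, Sema6a acts with its receptor Plxna2 in the migration of granule cells from the outer to the inner layer.

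The cultures were cells dissociated from cerebella of wild-type mouse pups and kept in serum-free medium for 48 h. They then received triiodothyronine (T3, the active thyroid hormone) at 0.1 µM, or were left untreated, for 6, 16, 24 or 48 h. The sample labels give pups of P4 to P7 and the methods pups of P1 to P4. Each of the 8 conditions was read on 1 Affymetrix Mouse 430 2.0 array (RNA amplified in a two-cycle protocol), and the methods state that the treated and untreated culture of a time point came from the same cell batch. A difference at 1 time point therefore compares 1 array with 1 array and has no error, and hours of treatment, hours of culture and cell batch cannot be told apart between time points. Signals are linear intensities with a trimmed mean of 100 on every array, and a gene is given by its brightest probe-set, so that levels can be compared between arrays but not between genes.

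On the treatment check, Klf9 and Dbp, both known to respond to T3, had higher signals with T3 at all 4 time points (log2 differences of 0.60 to 1.35 for Klf9 and 0.97 to 1.53 for Dbp). Neither passed the test over all probe-sets (limma, adjusted p = 0.306 and 0.154), and the third gene of the check, Hr, was below the filter (7.1 to 17.6 on all arrays). Markers of granule neurons were measured (6 of 8 kept), with Gabra6 and Cbln3 of mature granule neurons at 2.7 to 21.3 on all arrays. The untreated 24 h array stood apart. On it the summed signal of astrocyte and Bergmann glia markers (9 of 10 kept) was 6705, against 1958 to 3206 on the other 7 arrays. That of oligodendrocyte markers (5 of 10 kept, with Mog at 0.4 to 4.5) was 2500 against 900.5 to 1292, and Gad1, the only kept marker of GABAergic interneurons, was at 467.4 against 22.4 to 246.7. Summed signals take in all measured genes of a list, kept or not.

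The promoters of 4 genes that the results turn on are shown to place the genes and to mark the half-site of the thyroid hormone receptor. Each run is the 250 bases before the transcription start in RefSeq (build GRCm38.p6), written 5′ to 3′ on the strand of the gene, and capitals mark AGGTCA or its reverse complement TGACCT. Plxna2 (chr1:194619579-194619828, plus strand) was lower with T3 at every time point on its brightest probe-set, though not on its others. Plxna3 (chrX:74328816-74329065, plus strand) and Sema7a (chr9:57939862-57940111, plus strand) were more than 2-fold below untreated at 24 h. Nrp1 (chr8:128358823-128359072, plus strand) differed mainly between time points. All 4 were chosen with their values known. Sema4c, Sema4g, Plxnb1 and Sema6c, also over 2-fold below untreated at 24 h, have windows that are not shown.
Plxna2: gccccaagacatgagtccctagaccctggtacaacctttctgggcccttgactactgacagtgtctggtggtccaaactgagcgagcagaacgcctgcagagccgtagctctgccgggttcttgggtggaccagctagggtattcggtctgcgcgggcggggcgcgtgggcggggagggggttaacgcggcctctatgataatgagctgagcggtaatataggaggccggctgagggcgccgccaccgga
Plxna3: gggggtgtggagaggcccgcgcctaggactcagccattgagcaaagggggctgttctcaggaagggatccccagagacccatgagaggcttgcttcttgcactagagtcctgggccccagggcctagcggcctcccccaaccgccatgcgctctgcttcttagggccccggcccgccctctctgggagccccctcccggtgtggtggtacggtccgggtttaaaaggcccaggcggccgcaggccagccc
Sema7a: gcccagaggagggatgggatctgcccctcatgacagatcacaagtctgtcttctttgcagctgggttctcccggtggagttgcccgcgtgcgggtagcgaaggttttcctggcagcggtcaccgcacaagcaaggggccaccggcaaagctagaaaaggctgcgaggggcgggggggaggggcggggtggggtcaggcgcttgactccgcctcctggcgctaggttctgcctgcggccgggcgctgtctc
Nrp1: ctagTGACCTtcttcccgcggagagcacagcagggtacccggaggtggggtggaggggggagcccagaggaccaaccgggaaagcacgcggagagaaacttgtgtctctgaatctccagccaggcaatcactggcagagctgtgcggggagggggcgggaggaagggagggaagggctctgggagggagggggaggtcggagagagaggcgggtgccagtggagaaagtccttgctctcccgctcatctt
In these 4 windows the half-site was found once, in Nrp1, with its first base 246 bases before the start. Among all members, 26 had a window in the table (37 windows in all), and 7 of these windows (18.9%) held the half-site on either strand, against 14.0% of 32851 windows of all genes. The direct repeat of the half-site with 4 bases between, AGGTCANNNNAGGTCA on either strand, was in 0 windows of members and in 5 of all. The members' windows were rich in G and C, with a median of 64.0% against 52.4% for all windows, and held a median of 13 CpG dinucleotides against 6. These matches describe letters in a window of 250 bases and say nothing about binding.

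No member passed the test for a T3 difference shared by the 4 time points, and neither did any of the 10194 genes (background 0% higher and 0% lower, limma with the time point as a block, adjusted p under 0.05). At an unadjusted p under 0.05, 3 of 24 members stood, against 4.85% of all genes. They were Plxna2, Sema3d and Plxna3. A small p over these 4 pairs favours 1 sign in all of them. The same 3 of 24 members (12.5%) were lower with T3 at all 4 time points on their brightest probe-set, against 7.92% of all genes. Sema4d, a membrane semaphorin that binds Plxnb1, was the 1 member (4.17%) higher at all 4, against 6.91% of all genes. The median log2 difference over the 4 pairs was -0.13 for the members and 0.00 for all genes. No T3 difference that changed with the hours was called either (0 of 24 members, background 0% of all genes), and 0 members and 245 of 18015 probe-sets stood at an unadjusted p under 0.05.

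**Figure D1:**
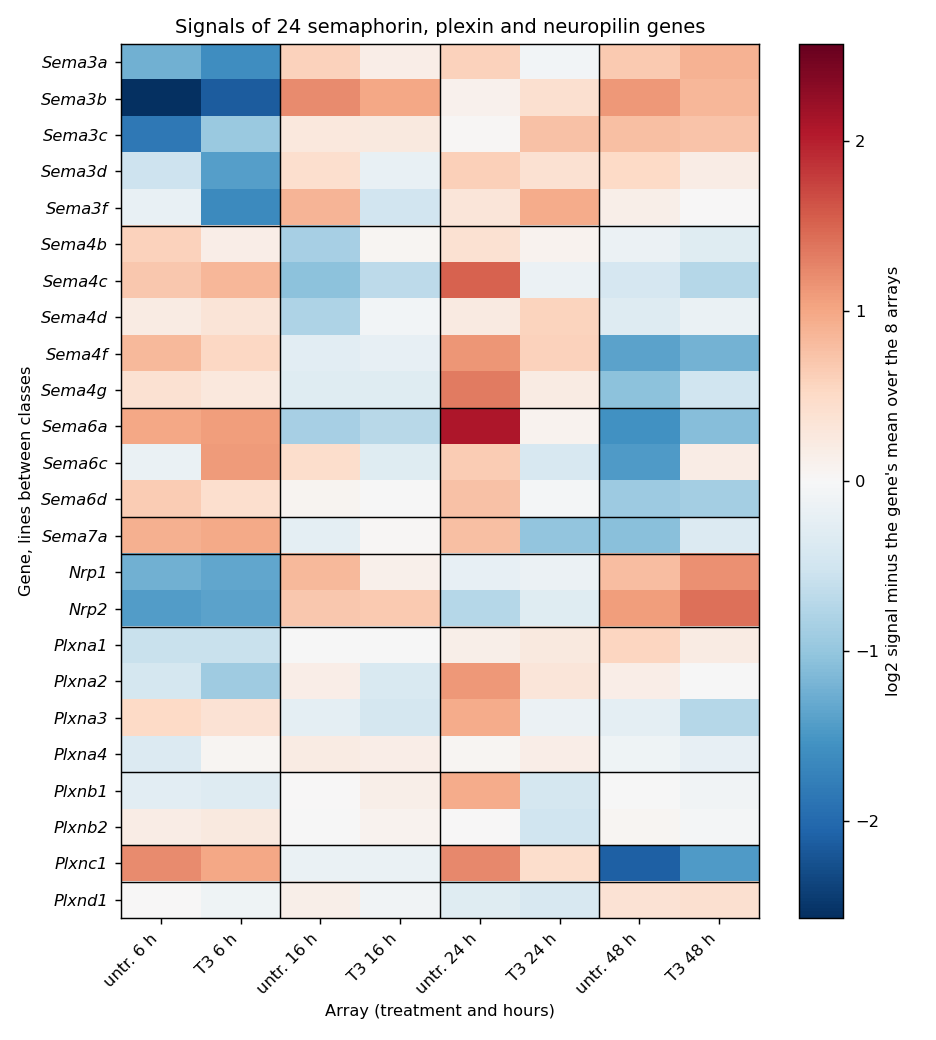
Each row is 1 of the 24 members and each column 1 of the 8 arrays (untr. is untreated), and the colour gives the log2 signal minus the mean of that gene over the 8 arrays. The class 3 semaphorins and both neuropilins are low at 6 h, the class 4 semaphorins are high at 6 and 24 h, and Sema6a is highest on the untreated 24 h array.

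Plxna2, the plexin that granule cells use to read Sema6a, is read by 4 probe-sets that were all kept. On the brightest (1453286_at) the untreated cultures had signals of 106.5 at 6 h, 165.2 at 16 h, 318.1 at 24 h and 163.8 at 48 h. With T3 they had 78.0, 111.4, 181.7 and 146.3 in the same order. The treated culture was lower at every time point, by log2 0.45, 0.57, 0.81 and 0.16 in order of hours, while the ranges of the treated and untreated arrays overlapped. The mean T3 difference was -0.50 ± 0.14 (moderated SE, 4 pairs, limma, adjusted p = 0.815), and -0.39 ± 0.13 over the 3 pairs without 24 h (adjusted p = 0.669).

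The other 3 probe-sets of Plxna2 were lower with T3 at 6 and 16 h as well. On 1429772_at the signals at 6 h were 50.2 untreated and 21.3 with T3, and at 16 h 99.2 and 43.0, which are both over 2-fold. At 24 h 3 of the 4 probe-sets were lower with T3 and at 48 h 2 of 4, and 1451753_at was slightly higher at 24 h (80.7 untreated, 86.9 with T3). The mean T3 difference of the 4 probe-sets ranged from -0.68 to -0.15. The untreated 24 h signal was the highest of the 8 arrays on 1453286_at and on 1455037_at (118.9), but on 1429772_at it was 38.1, below the untreated signals at the other hours. Which transcripts of Plxna2 the probe-sets read was not tested.

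**Figure D2:**
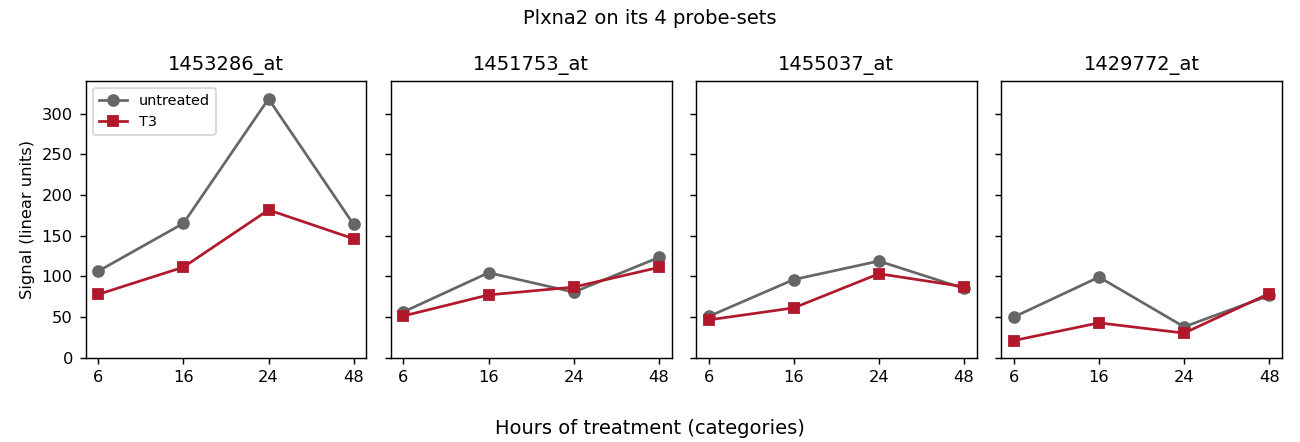
Linear signal of the 4 Plxna2 probe-sets (1 panel each) at 6, 16, 24 and 48 h (drawn at equal steps), untreated as grey circles and with T3 as red squares, 1 array per point. T3 lies below untreated on all 4 probe-sets at 6 and 16 h and on 1453286_at at every time point.

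Of the secreted class 3 semaphorins, 5 of 7 were kept. Sema3d was lower with T3 at all 4 time points, most at 6 h (60.1 untreated and 32.3 with T3) and at 16 h (116.1 and 76.3), with smaller gaps at 24 h (131.8 and 113.5) and 48 h (123.5 and 98.8). Its mean T3 difference was -0.51 ± 0.16 (SE, 4 pairs, adjusted p = 0.815). Sema3f, a ligand of Nrp2, had the largest differences of the class: 186.9 untreated and 68.9 with T3 at 6 h, and 391.9 and 150.7 at 16 h. At 24 h the order was the other way (264.4 and 411.9) and at 48 h the 2 arrays were close (236.8 and 215.7). Sema3f thus counted as over 2-fold lower at 6 h (log2 -1.44) and at 16 h (-1.38).

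This rested on 1 probe-set, 1438947_x_at, of a type whose probes can match other sequences. The other 2 Sema3f probe-sets were below the filter and did not share it. At 6 h 1 of them had 2.2 untreated and 13.9 with T3, and the other was likewise higher with T3. With the mean of the 3 probe-sets the difference was 0.83 at 6 h and -0.43 at 16 h. Sema3a, the classical collapsing ligand of Nrp1, was lower with T3 at 6, 16 and 24 h (65.5 against 103.2 at 24 h) and higher at 48 h (126.7 against 108.7). Sema3c was higher at 6 h (85.5 against 46.3) and at 24 h (281.7 against 169.5), with nearly equal signals at 16 and 48 h. Sema3b differed by less than log2 0.5 in either direction at every time point on its brightest probe-set, while its second kept one was higher with T3 at 6 h (14.9 against 7.9) and lower at 16 h (67.6 against 109.7).

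At 6 h 1 member was over 2-fold lower with T3 (Sema3f, background 0.314% of all genes) and 1 was over 2-fold higher (Sema6c, background 0.432%). At 16 h 1 member was over 2-fold lower (Sema3f, background 0.245%) and 0 were higher (background 0.412%). At 48 h 0 members were over 2-fold lower (background 0.363%) and 1 was higher (Sema6c, background 0.755%). Sema6c, a membrane semaphorin of the same class as Sema6a, was the least steady of the members: the treated culture was above the untreated one at 6 h (81.6 against 33.9) and at 48 h (43.5 against 13.9), and below it at 16 h (30.7 against 52.3) and 24 h (28.8 with T3, log2 -1.06). With 32 added to every signal its differences at 6, 24 and 48 h were 0.79, -0.60 and 0.72, all within 2-fold. Its other 2 probe-sets were below the filter and both lower with T3 at 48 h, and with the mean of the 3 the differences were 0.85, -0.60 and 0.11.

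At 24 h the members lay lower with T3. Over 2-fold lower were 7 of 24 members (29.2%), against a background of 5.83% of all genes, and over 2-fold higher were 0, against a background of 2.81%. The 7 were Sema6a, Sema7a, Sema4c, Plxnb1, Sema4g, Plxna3 and Sema6c. The median log2 difference at 24 h was -0.53 for the members, of which 16 of 24 were lower, and 0.03 for all genes. The count of 7 was 4 with 32 added to every signal and 3 with the mean of all probe-sets of a gene. For these settings no share of all genes was counted, so these counts cannot be set against a background. With the stricter filter at the 75th percentile 11 members were kept and 1 of them (9.09%) was over 2-fold lower, beside 3.71% of all genes then kept. At the other 3 time points the members' medians were -0.08, -0.01 and 0.00.

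Sema6a, the ligand of Plxna2 and Plxna4, had 384.3 on the untreated and 96.8 on the treated 24 h array (log2 -1.99). Its other untreated arrays had 181.5, 50.2 and 30.8 (6, 16 and 48 h) and the treated ones 192.4, 55.8 and 42.5. At those 3 time points the treated culture was slightly the higher one, and the mean difference over them was 0.23 ± 0.15 (SE, 3 pairs, adjusted p = 0.796). The other 2 Sema6a probe-sets were below the filter and had 18.2 untreated and 15.2 with T3, and 12.3 and 10.8, at 24 h, and with the mean of the 3 the 24 h difference was -0.81.

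Sema7a, the lipid-anchored semaphorin that binds Plxnc1 and integrins, had 315.3 untreated and 91.0 with T3 at 24 h (log2 -1.79). At 6 h it had 344.4 and 361.3, at 16 h 154.6 and 188.3, and at 48 h 86.9 and 144.8, with the treated culture higher each time. The mean difference without the 24 h pair was 0.36 ± 0.14 (SE, 3 pairs, adjusted p = 0.680). The treated 24 h array was here close to the lowest of the 8, whereas the untreated 24 h array was near the 6 h level.

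The class 4 member Sema4c had 167.5 untreated and 52.9 with T3 at 24 h (log2 -1.66), and Sema4g had 138.2 and 63.4 (-1.12). Both had their highest signal of the 8 arrays on the untreated 24 h array. Among the receptors, Plxnb1, the receptor of Sema4d, had 144.7 and 54.5 (-1.41) and Plxna3, a partner of the neuropilins for class 3 ligands, had 111.8 and 52.5 (-1.09). The second kept probe-set of Plxnb1 had 81.2 and 52.9. The other Plxna3 probe-set was below the filter and had 13.2 untreated and 16.7 with T3 at 24 h. It was also higher with T3 at 6 and 16 h, and lower at 48 h (21.4 and 4.2). Without the 24 h pair the mean T3 differences of these 4 genes were 0.08 ± 0.18, 0.15 ± 0.19, -0.01 ± 0.14 and -0.28 ± 0.16 in the order given (SE, 3 pairs). With 32 added to every signal the 24 h differences of Sema4g and Plxna3 were -0.84 and -0.77, within 2-fold.

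**Figure D3:**
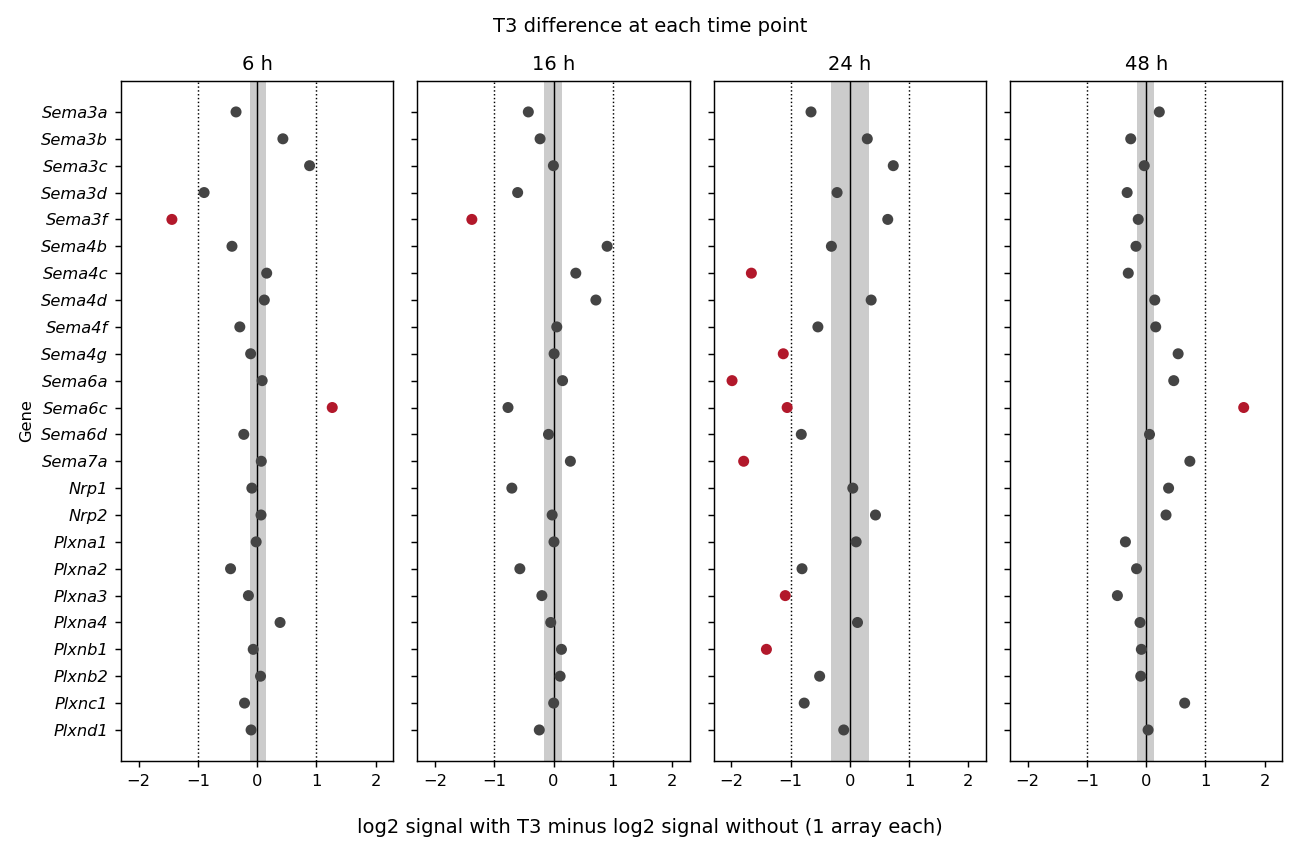
Difference in log2 signal between the treated and the untreated array at each time point (1 panel each) for the 24 members; points in red are over 2-fold (dotted lines at -1 and 1) and the grey band holds the middle 50% of all 10194 genes. At 24 h 7 points are red and to the left, while 1 or 2 are red at each of the other time points.

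The untreated 24 h array was high for many members. Of the 7 members over 2-fold lower with T3, 5 had their highest signal of all 8 arrays on the untreated 24 h array. The choice of the 7 favours this, since it asks for an untreated 24 h signal over 2-fold above the treated one. Among all 24 members, 10 (41.7%) had their highest signal on that array, against a background of 18.9% of all genes. The 10 were Sema3d, Sema4c, Sema4f, Sema4g, Sema6a, Sema6d, Plxna2, Plxna3, Plxnb1 and Plxnc1. The summed markers of astrocytes, oligodendrocytes and interneurons were highest on the same array, but not every gene of the lists was: 5 of 9 kept astrocyte and 3 of 5 kept oligodendrocyte markers had their highest signal there. Fabp7 made up 3423 of the astrocyte sum, and Aqp4 was at 1054 against 16.8 to 76.8 on the other arrays. Gdf10 and Gjb6 of the same list (98.9 and 179.6) and the oligodendrocyte precursor gene Pdgfra (242.4) were higher on other arrays, and Pdgfra was lowest there. Purkinje cell markers (7 of 9 kept) summed to 2658 there, against 734 to 2325. Of the 7, 3 had their highest signal there, while Pcp2, Foxp2, Lhx1 and Rora were higher on other arrays. Granule neuron markers also had their highest sum there (5883, against 562 to 5711), with 2 of 6 kept genes highest there. Their mean centred log2 signal at 24 h was 1.22 untreated and -0.06 with T3. Granule cell precursor markers summed to 7132 there and to 5365 with T3 at 24 h, and had their highest sum on the untreated 6 h array (8751). The part of these cells in the members' difference was not tested, and in RNA of a whole culture fewer cells of a type and less RNA per cell cannot be told apart.

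**Figure D4:**
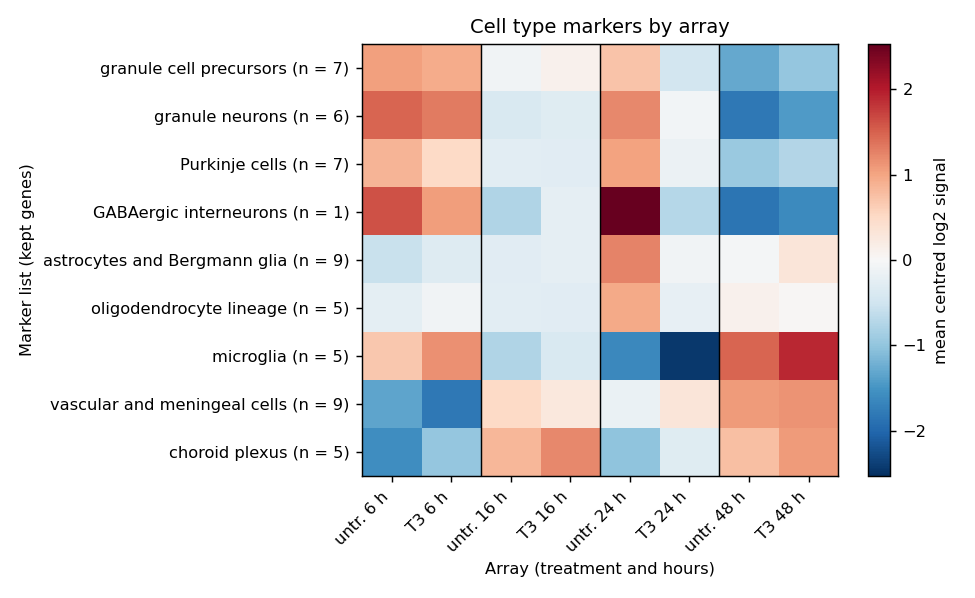
Mean centred log2 signal (signal minus each gene's mean over the 8 arrays) of the kept genes of 9 cell type marker lists (rows) on the 8 arrays (columns, untr. is untreated). Astrocyte, oligodendrocyte and interneuron markers are highest on the untreated 24 h array, granule neuron markers are lowest at 48 h, and vascular and choroid plexus markers are low at 6 h.

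The receptors that were not over 2-fold at any time point on their brightest probe-set varied to different degrees with T3. Plxna2 and Plxnc1 reached log2 -0.81 and -0.77 at 24 h, and Nrp1 -0.70 at 16 h. Plxnb2, a receptor of class 4 semaphorins, was between 572.1 (T3, 24 h) and 963.0 (T3, 6 h) on all arrays. Plxnd1, the receptor of Sema3e in vessels, lay between 80.6 and 142.3, Plxna1 between 50.1 and 110.7, and Plxna4 between 25.4 and 37.5, near the filter. The T3 differences of Plxnb2, Plxnd1, Plxna1 and Plxna4 stayed within log2 0.51 in either direction. Of the remaining ligands, Sema6d, a ligand of Plxna1, had 811.1 untreated and 459.4 with T3 at 24 h and Sema4f 170.1 and 117.0, with smaller differences at the other hours. The second kept probe-set of Sema4f did not show this (52.9 and 55.0 at 24 h, and 31.3 and 54.1 at 6 h). Sema4b was higher with T3 at 16 h (67.4 against 36.0) and lower at the other 3 time points, and Sema4d was higher most at 16 h (72.4 against 44.1).

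Across the hours, the fitted slopes of secreted ligands and neuropilins had one sign and those of membrane semaphorins the other. Positive slopes were found in 12 of the 24 members and in 47.2% of all genes. A slope need not mean a steady change: untreated Sema4c had 94.3, 28.2, 167.5 and 43.3 in order of hours. All 5 class 3 semaphorins and both neuropilins had positive slopes, of 0.38 to 1.07 log2 per doubling of the hours for the ligands and of 0.69 and 0.78 for Nrp1 and Nrp2. All 9 kept semaphorins of classes 4, 6 and 7 had negative slopes, from -0.62 (Sema6a) to -0.12 (Sema4d). Those of Sema4d (-0.12 ± 0.16, SE), Sema4b (-0.16 ± 0.20) and Sema6c (-0.34 ± 0.38) lay within 1 SE of 0. Plxnc1, the receptor of Sema7a, had the steepest negative slope (-0.82 ± 0.27, SE). None passed the test in which arrays of the same time point were allowed to share their deviation (limma with a random block, 8 arrays): 0 of 24 members were called, against a background of 2.09% of all genes with a positive and 0.500% with a negative slope. The smallest adjusted p was 0.0602 (Sema3a, 0.72 ± 0.17), and 10 of 24 members stood at an unadjusted p under 0.05, as did 26.9% of all genes. With arrays taken as independent 8 members passed, without the 16 h arrays 5 and without the 24 h arrays 11. Without the 6 h or the 48 h arrays 0 did. In the settings where members passed, more of all genes passed too, as counted in the last section. With independent arrays 3458 of 18015 probe-sets passed, against 392 with the random block.

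The neuropilins are read by 3 kept probe-sets each. Nrp1, the co-receptor of Sema3a and of VEGF, had untreated signals of 142.4, 601.4, 292.6 and 582.5 in order of hours, and 133.8, 369.3, 302.8 and 756.8 with T3. Nrp2, the co-receptor of Sema3f, had 69.5, 305.9, 113.6 and 398.7 untreated, and 72.7, 301.0, 153.3 and 502.7 with T3. For both genes the 4 arrays of 6 and 24 h lay below the 4 of 16 and 48 h, and this held on all 3 kept probe-sets of each. Between treated and untreated cultures of a time point the largest neuropilin difference was that of Nrp1 at 16 h (log2 -0.70), while both treatments were over 2-fold higher at 16 h than at 6 h in both genes.

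Sema3b had untreated signals of 20.8, 286.5, 134.4 and 268.6 in order of hours, and 28.1, 244.8, 164.8 and 224.1 with T3. It too lay lower at 6 and 24 h than at 16 and 48 h, on 1 of its 2 kept probe-sets. Sema3c had its lowest signals at 6 h (46.3 and 85.5) and 169.5 to 282.7 later, and Sema3a 22.8 and 29.2 at 6 h and 65.5 to 126.7 later. These 2 ligands differed mainly between 6 h and the later hours.

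In 6 of the 9 kept membrane semaphorins and in 2 plexins the time points lay in the opposite order. In all 5 kept class 4 genes (Sema4b, Sema4c, Sema4d, Sema4f and Sema4g) and in Sema6a, Plxna3 and Plxnc1, each of the 4 arrays of 6 and 24 h lay above each of the 4 arrays of 16 and 48 h. This made 8 of 24 members (33.3%), against a background of 15.6% of all genes, and the opposite order in Nrp1, Nrp2 and Sema3b made 3 of 24 (12.5%), against a background of 16.3%. With the filter at the 75th percentile the first count was 1 of 11 members (9.09%), beside 14.9% of all genes then kept. Plxnc1, for example, had untreated signals of 769.1, 295.7, 778.0 and 77.6 in order of hours, and 663.4, 296.2, 456.0 and 121.7 with T3. Sema4f had 138.7, 64.5, 170.1 and 29.8 untreated, and 113.2, 67.0, 117.0 and 33.3 with T3. For Sema4b the gap was narrow (68.8 against 67.4), and on the second kept probe-set of Sema4f and on 1 of 3 of Plxnc1 the arrays overlapped. This order of the time points was noticed in the data and is a description with no test.

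**Figure D5:**
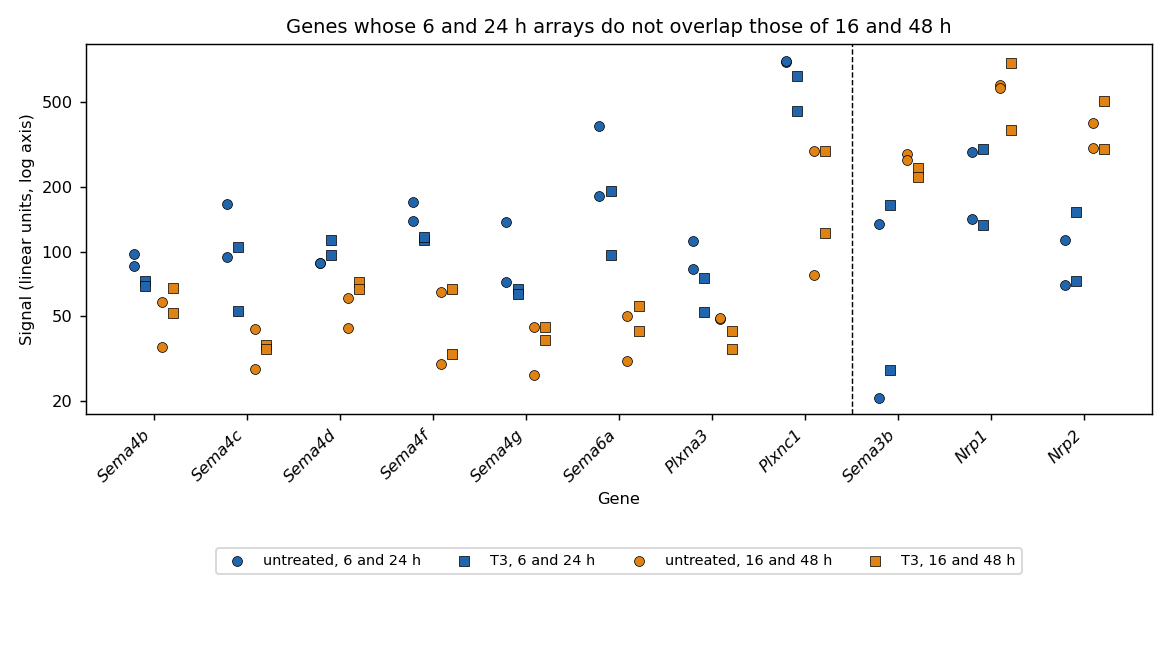
Linear signal (log axis) of the 11 members whose arrays of 6 and 24 h (blue) do not overlap those of 16 and 48 h (orange), untreated as circles and T3 as squares, 1 array per point. The 8 genes left of the dashed line are higher at 6 and 24 h, and Nrp1, Nrp2 and Sema3b to its right are lower.

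Some lists of cell type markers were apart between the same time points and others were not. Granule neuron markers had a mean centred log2 signal of -0.06 to 1.46 on the arrays of 6 and 24 h and of -1.81 to -0.31 on those of 16 and 48 h. Choroid plexus markers (5 of 5 kept) had -1.56 to -0.31 and 0.76 to 1.21. Purkinje cell markers had -0.14 to 1.01 and -0.95 to -0.28. The ranges overlapped for granule cell precursors (-0.46 to 1.04 and -1.30 to 0.12), interneurons, astrocytes, oligodendrocytes, microglia and vascular cells. Gene by gene, 4 of 6 granule neuron, 3 of 7 Purkinje cell and 2 of 7 granule cell precursor markers lay above at 6 and 24 h. So did 2 of 9 astrocyte and 1 of 5 oligodendrocyte markers (15.6% of all genes). Below lay 4 of 5 choroid plexus, 3 of 9 vascular and 1 of 9 astrocyte markers (16.3% of all genes). Vascular and meningeal markers (9 of 10 kept) summed to 1421 and 2088 at 6 h, to 5978 and 8847 at 24 h and to 7599 to 13117 at 16 and 48 h. Their part in the members' signals was not tested.

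Among 42 listed genes of the semaphorin pathway that are not members (co-receptors, collapsin response mediators, MICAL enzymes, GTPases with their regulators, kinases and adaptors), 31 were kept, and 2 of these, Kdr and Tyrobp, are also cell type markers. None passed either test: 0 of 31 were called for T3 and 0 of 31 for the hours, and 3 and 10 stood at an unadjusted p under 0.05, beside 4.85% and 26.9% of all genes. At 6, 16 and 48 h none was over 2-fold in either direction. At 24 h 3 of 31 were over 2-fold lower with T3 (5.83% of all genes) and 3 of 31 over 2-fold higher (2.81% of all genes).

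The lower ones were Chl1, an L1-type adhesion molecule that joins neuropilin complexes (820.6 untreated and 156.0 with T3, log2 -2.40), and Dpysl3 and Dpysl4, collapsin response mediators of the growth cone (1890 and 714.8, and 225.1 and 90.1). All 3 had their highest signal on the untreated 24 h array, as the members over 2-fold lower mostly did. The higher ones were Vegfa, the growth factor that also binds Nrp1 (140.0 and 377.7, log2 1.43), Rras, a GTPase that plexins inactivate (258.4 and 541.2), and Itgb1, the integrin subunit that serves as a receptor for Sema7a (166.8 and 334.1). For Vegfa and Itgb1 the untreated 24 h array was the lowest of the 8. Choosing genes by a large 24 h difference favours such extremes on that array.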

How the data were processed

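The 8 arrays were used as deposited. Per the labels and the submitters' processing notes, the authors computed signal intensities on a linear scale with GCOS and MAS 5, and the deposited intensity values have a mean of 100 on each array once the highest and lowest 2% of probe-sets are left out. Of 45101 probe-sets, 64 controls were dropped; of the rest, 34945 carry 1 gene symbol, 932 several and 9160 none, and only those with 1 were named. A floor of 1 was set before the log2 was taken, and probe-sets with a mean log2 signal at or above the 60th percentile (4.95, a signal of 31.0) were kept (18015). A gene was represented by its probe-set with the highest mean log2 signal. The number of arrays limits the precision. For p values, each time point counts as 1 pair, and whether the pairs came from separate litters is not given in the sources used here.

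T3 was tested with limma 3.58.1 in R 4.3.3 on the log2 values, each time point being a fixed block, with a variance trend (prior degrees of freedom 4.44). The slope over log2 hours took it as a random block (duplicateCorrelation, statmod 1.5.0, correlation 0.569), since the methods state that the cultures of a time point share a cell batch. Deviations from the treatment mean correlated at 0.905, 0.713, 0.520 and 0.878 between the arrays of 6, 16, 24 and 48 h. A slope of the 4 T3 differences over log2 hours was fitted in the same way. Two-sided p values received the Benjamini-Hochberg adjustment across the 18015 probe-sets, with a threshold of 0.05. Counts of all genes use 1 probe-set per gene. Single time points were counted at 2-fold, with no test. All fits were tested on simulated data.

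The members and the lists of markers and partners were chosen with earlier results of these data known. All kept members are named, and of the partners those over 2-fold. Promoter windows and gene symbols came from RefSeq tables and the platform annotation. Alternatives were quantile normalization, median centring, 32 added to the signals, no filter or the 75th percentile, the mean of all probe-sets of a gene, no variance trend, no block, other time scales, 1.6-fold and 3-fold thresholds and each time point left out. Python 3.11.15, pandas 2.3.3 and matplotlib 3.10.9 served for counts and figures. Detection calls, Q-RT-PCR and animal tissue were not used here.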

Additional observations from a re-analysis of the deposited data

How the results depend on the processing

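With 1 array per condition, no value at a single time point has an error, and low signals limit the folds. No member was called for T3 under any alternative run, the fit with no block for the time point included. Among all genes the count for T3 was 0 and ranged from 0 to 2 when a time point was left out (2 without 24 h). For the slope over hours, 264 of 10194 genes were called. This became 35 with quantile normalization, 104 with 32 added to every signal, 7 with no filter, 0 with no variance trend, 2175 with arrays taken as independent, and 0 with the mean of each time point, with hours on the linear scale or with untreated arrays alone. Leaving out 1 time point gave 0 to 3140 genes (759 without 16 h, 3140 without 24 h). Of the members, 0 were called, but 1 with median centring (Sema3a), 8 with independent arrays and 0 to 11 with 1 time point left out.

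The 7 members over 2-fold lower with T3 at 24 h became 4 with 32 added, 1 with the filter at the 75th percentile (which keeps 11 members), 3 at 3-fold and 3 with the mean of all probe-sets. The share of all genes beside this count was taken only in the main setting and at the 75th percentile. The 0 higher at 24 h became 1 at 1.6-fold. At 6 h the 1 lower became 2 at 1.6-fold, 0 at 3-fold and 0 with the mean of probe-sets, which turned the sign of Sema3f (0.83), and the 1 higher became 0 with 32 added, 0 at the 75th percentile, 2 at 1.6-fold and 0 at 3-fold. At 16 h the 1 lower became 3 with no filter, 3 at 1.6-fold and 0 at 3-fold, and the 0 higher became 1 with no filter and 2 at 1.6-fold. At 48 h the 0 lower became 1 with no filter and 1 with the mean of probe-sets, and the 1 higher became 0 with 32 added, 0 at the 75th percentile and 2 at 1.6-fold. For the order of the time points, an alternative set added after seeing the data gave 1 in place of 8 members above at the 75th percentile. In untreated arrays alone 5 in place of 3 were below, with Sema3c and Plxnd1 added, and Sema6d and Sema7a joined those above. That setting compares 2 arrays with 2 rather than 4 with 4, which is easier to meet by construction. No share of all genes was counted for it. The cause was not tested where a value moved, except that a stricter filter keeps fewer genes by construction. Without the replicate block for the time point, 0 genes and 0 members were called for T3.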
